A study of Homo sapiens with 21 samples.

Results

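The 3 libraries labelled shARID1A/B.4.2 were compared with the 3 Control libraries of the same series over all genes, using their titles to choose them. They are 6 of 21 RNA-Seq libraries made from SK-N-BE(2), an established human neuroblastoma cell line, 72 h after transduction with lentiviral shRNA, in biological triplicates for each of 7 conditions. Such a hairpin is processed in the cell into a small RNA directed at 1 transcript. The shARID1A/B.4.2 title names a combination against both ARID1A and ARID1B, the Control cells received a non-silencing shRNA, and cell line, time point and library type were shared by both. Only RNA was measured, in 1 cell line, so the values speak for transcripts and not for proteins.

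ARID1A and ARID1B are alternative subunits of the BAF complex, an ATP-dependent remodeller that slides and ejects nucleosomes and so keeps enhancers and promoters accessible. They are paralogues, and a canonical BAF complex holds one or the other. The related PBAF complex carries ARID2 and PBRM1 instead, and a non-canonical form carries neither ARID1 protein. In neuroblastoma, a tumour of the sympathetic lineage, a core circuit of transcription factors that includes HAND2, ISL1, GATA3 and MYCN maintains the adrenergic identity of the cells.

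The targeted transcripts were examined first, and one of them went against the title. ARID1B (chromosome 6, 156776020 to 157210779, GRCh38, GENCODE 29) had normalised read counts of 5793, 5804 and 5791 in the Control libraries and 1886, 1881 and 1955 in the libraries labelled shARID1A/B.4.2. It fell by 1.6 on the log2 scale (SE 0.02, adjusted p = 7.74e-26, limma), and the groups were far apart. ARID1A (chromosome 1, 26693236 to 26782110) had 6097, 6374 and 6463 in Control and 5589, 5352 and 5379 in the other group. Its level was lower in each of the 3 libraries, with a log2 fold change of -0.21 (SE 0.03, adjusted p = 4.05e-07, limma), and the call was lost when reads were scaled to the library total (-0.03, adjusted p = 0.433). ARID1B was thus lowered and ARID1A stayed near its Control level, whereas both were low in shARID1A.2 (means of 2146 for ARID1A and 2241 for ARID1B) and in shARID1A.4 (2243 and 3100). In shARID1B.2 and shARID1B.3 it was ARID1A that was low (1920 and 2479), while ARID1B was at 5004 and 6091. Whether titles or columns of the series were exchanged could not be settled from these levels, and if they were, the comparisons below concern other hairpins than their names say. The groups are therefore named by their labels throughout, and every direction below is that of the libraries labelled shARID1A/B.4.2.

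**Figure D1:**
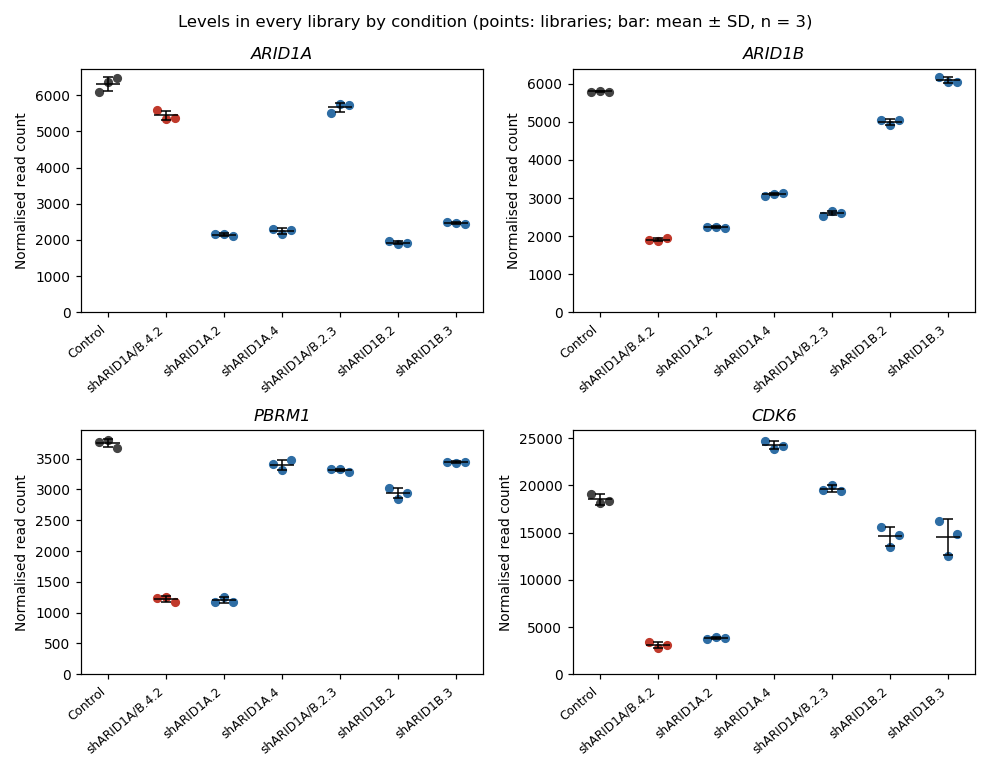
Normalised read counts of ARID1A, ARID1B, PBRM1 and CDK6 in every library (points) of the 7 labelled conditions, with the mean and SD of 3 libraries, on linear axes from 0. The libraries labelled shARID1A/B.4.2 (red) have ARID1B at 1881 to 1955 and ARID1A at 5352 to 5589, and share low PBRM1 and CDK6 with those labelled shARID1A.2.

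PBRM1, a further subunit gene, fell as far as ARID1B. It lies at 52545352 to 52685917 of chromosome 3 and encodes the bromodomain subunit of PBAF. Its values were 3778, 3808 and 3673 in Control and 1241, 1250 and 1172 in the libraries labelled shARID1A/B.4.2 (log2 fold change -1.62, SE 0.03, adjusted p = 2.33e-23, limma). PBRM1 had a mean of 1199 in the libraries labelled shARID1A.2 and means of 2942 to 3444 in the other 4 silenced conditions. Of 30 BAF, PBAF and ncBAF subunit genes, 18 were called lower and 6 higher, against 36.1% and 35.1% of all genes tested, and 2 passed 2-fold. DPF2, a histone-reading subunit of BAF, changed by -0.90, BCL7B by -0.91 and SMARCE1 by -0.65, while BCL7A (0.87), SMARCD1 (0.49) and SMARCD2 (0.43) were called higher. SMARCA4, the main ATPase, had a log2 fold change of -0.03 (SE 0.02, adjusted p = 0.222, limma), but 0.15 with scaling to total reads (adjusted p = 2.89e-05, limma). The median of the list was -0.17 beside 0.02 for all genes. With scaling to total reads it was 0.02, with 9 members lower and 12 higher, so no direction is given for the list.

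Across the transcriptome, 13230 of 18584 genes tested passed an adjusted p of 0.05 (limma), with 6708 lower and 6522 higher (36.1% and 35.1%). Over 2-fold, 1513 genes fell and 1910 rose, which is 8.14% and 10.3% of those tested. The balance turned to 1147 lower and 805 higher when 10 reads were required in each of the 21 libraries, and was 1101 and 2590 with scaling to total reads. The log2 fold change is that of the normalised read count plus 1, so it understates the change of genes with low values. The near-even split depended on the scaling. With reads scaled to the library total, 35.2% of the calls were lower instead of 50.7%, and the median of all genes moved from 0.02 to 0.20. Changes are given relative to the deposited normalisation, and p-values describe the spread between these libraries. In bulk RNA, fewer cells of a kind and less RNA per cell cannot be told apart.

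Read depth was similar in the groups, at 30579746 to 34973565 reads in Control and 33361302 to 40905514 in the libraries labelled shARID1A/B.4.2. The latter had more genes with 10 reads or more (17314 to 17717 against 16246 to 16500), and a larger share of reads from mitochondrially encoded genes (7.59 to 7.95% against 6.35 to 6.63%). Their part in the results below was not tested. The rises over 2-fold were unevenly spread over gene classes. They made up 26.4% of 2762 long non-coding RNA genes tested but 6.97% of 14404 protein-coding genes, whereas falls over 2-fold made up 5.18% and 9.0%. Requiring 10 reads in each of the 21 libraries left 805 of the rises over 2-fold instead of 1910. That limit also drops genes that are low only in Control or in another condition. The gene classes were not compared at equal levels.

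**Figure D2:**
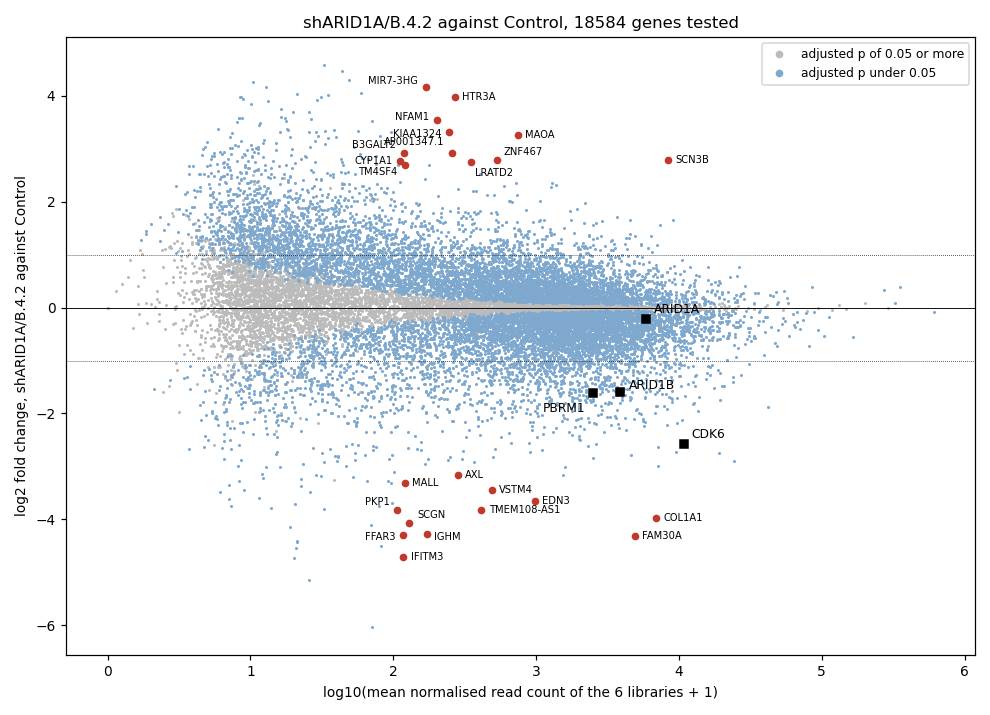
Log2 fold change of the libraries labelled shARID1A/B.4.2 against Control (vertical axis) by mean normalised read count of the 6 libraries on a log10 scale (horizontal axis), 1 point per gene for 18584 genes. Red points are the 12 largest falls and 12 largest rises among genes with a mean of at least 100 and no overlap between groups, black squares mark ARID1A, ARID1B, PBRM1 and CDK6, and dotted lines mark 2-fold.

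The 12 largest falls and 12 largest rises were taken from genes past the threshold with a mean of at least 100 and no overlap between groups, limits that 995 genes met as lower (5.35%) and 459 as higher (2.47%). Among the falls were IFITM3, described with the interferon-stimulated genes, and the following. COL1A1, the major chain of type I collagen, had 12727, 13040 and 13019 in Control and 742, 902 and 835 in the libraries labelled shARID1A/B.4.2, and fell by 3.97 (SE 0.05, adjusted p = 7.67e-27, limma). FAM30A, a long non-coding RNA of the immunoglobulin heavy chain region, had 8991, 9616 and 9378 against 487, 426 and 497, a 19.8-fold lower level. IGHM, the immunoglobulin mu constant gene of the same part of chromosome 14, had 305 to 350 against 11.8 to 20.1. EDN3, the peptide endothelin 3, fell from 1751 to 1855 down to 129 to 155. AXL, a receptor tyrosine kinase, had a log2 fold change of -3.16, and VSTM4 and MALL, both membrane proteins, had -3.44 and -3.32. FFAR3, a short-chain fatty acid receptor (-4.30), SCGN, a calcium sensor of endocrine cells (-4.07), and PKP1, a desmosomal plakophilin (-3.82), were lower too. TMEM108-AS1 fell by 3.82, and as an antisense gene it is uncertain, since the strand setting of the counting is not given in the sources used here.

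Among the rises, SCN3B, a beta subunit of voltage-gated sodium channels, had 2098, 2153 and 2065 in Control and 14532, 14660 and 14408 in the libraries labelled shARID1A/B.4.2 (log2 fold change 2.79, SE 0.04, adjusted p = 1.74e-26, limma). MAOA, the mitochondrial enzyme that degrades serotonin and catecholamines, rose from 143, 135 and 137 to 1420, 1281 and 1344, a 9.67-fold higher level. HTR3A, the serotonin-gated channel subunit, rose from 23.5 to 36.4 up to 486 to 540. KIAA1324 (3.31), B3GALT2, a galactosyltransferase (2.93), ZNF467, a zinc finger protein (2.79), LRATD2 (2.75), and TM4SF4, a tetraspan membrane protein (2.70), also rose. CYP1A1, the aryl hydrocarbon receptor target, rose by 2.77 and NFAM1, an immune signalling adaptor, by 3.55.

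**Figure D3:**
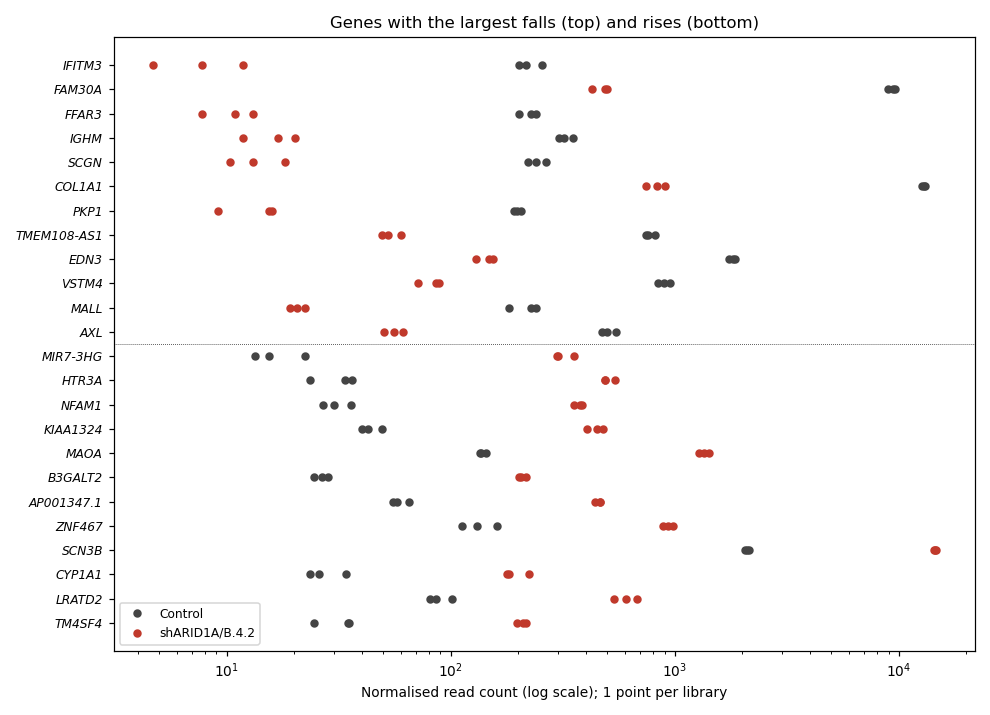
Normalised read counts (log axis) of the 12 largest falls (top) and 12 largest rises (bottom), 1 point per library, for Control (dark) and the libraries labelled shARID1A/B.4.2 (red). The groups do not overlap for any of the 24 genes, a condition of the choice.

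MIR7-3HG showed the largest rise by this rule, from 22.3, 13.4 and 15.4 to 353, 299 and 300 (log2 fold change 4.17, SE 0.41, adjusted p = 1.69e-09, limma). It is the host transcript (chromosome 19, 4769140 to 4772533) of the microRNA miR-7-3, a small RNA that pairs with target transcripts through its seed and is enriched in neuroendocrine cells. The mature sequence is shown because only the host was measured here, and the small RNA was not. The seed, bases 2 to 8, is in capitals, and the sequence is from RefSeq (GRCh38.p14, chr19:4770700-4770723, plus strand).
hsa-miR-7-5p: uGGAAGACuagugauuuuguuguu

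Genes of DNA replication and mitosis fell together, beside 36.1% lower and 35.1% higher among all genes tested. All 43 S-phase genes were called lower and none higher, with a median log2 fold change of -0.88, and of 54 G2/M genes 51 were lower and 1 higher, with a median of -0.85. TYMS, which makes thymidylate, had 3410, 3410 and 3360 in Control and 1067, 1036 and 938 in the libraries labelled shARID1A/B.4.2 (-1.74, SE 0.04). MCM6, a subunit of the replicative helicase, changed by -1.54, CDC6, its loader, by -1.49, SLBP, the histone mRNA binding protein, by -1.74, and PCNA, the sliding clamp, by -1.25. Of the mitotic genes, TOP2A (DNA topoisomerase) changed by -1.18, CENPF (kinetochore) by -1.24, BUB1 (spindle checkpoint) by -1.11 and MKI67, the proliferation marker, by -0.99. MKI67 levels were 28866 to 29256 in Control and 14549 to 14703 in the other group. Falls over 2-fold were found in 18 of 43 and 13 of 54 members, beside 8.14% of all genes tested.

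Among 22 of 23 cyclin, CDK, RB and E2F genes tested, 18 were called lower and 4 higher (81.8% and 18.2%, beside 36.1% and 35.1% of all genes), with a median of -0.58. CDK6 (chromosome 7, 92604921 to 92836594), the cyclin D partner kinase that phosphorylates RB, had the largest fall of the list, from 19136, 18093 and 18310 to 3365, 2794 and 3122 (-2.58, SE 0.07, adjusted p = 5.18e-21, limma). CCNE2, the cyclin of S-phase entry, changed by -1.50, E2F2 by -1.39, E2F8 by -1.16, CDK2 by -1.0, RB1 by -0.75 and CCND1 by -0.54. CCNE1, the paralogue of CCNE2, went the other way, from 346 to 368 up to 643 to 685 (0.89, SE 0.08). Of 7 CDK inhibitor genes, 3 were lower (42.9%) and 1 higher (14.3%, but 3 higher with scaling to total reads). CDKN1A, encoding p21, was lower, from 139, 135 and 164 to 41.9, 47.1 and 44.0 (-1.69, SE 0.14), and CDKN2C, encoding p18, changed by -0.68. CDKN2B, encoding p15, rose by 1.76 from 4.48 to 21.6 up to 37.4 to 55.6. CDKN1B, encoding p27, had -0.03 (adjusted p = 0.409, limma), but 0.16 with scaling to total reads (adjusted p = 0.000266, limma). Homologous recombination and Fanconi genes, which repair double-strand breaks and crosslinks, had 25 lower and 1 higher of 30 (83.3% and 3.33%), with a median of -0.46. The helicase BLM changed by -1.51, FANCI by -1.10, FANCD2 by -1.04, BRCA2 by -0.90 and BRCA1 by -0.80.

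The promoters of 2 falling replication genes are shown for the letters of the E2F site, the element bound by the RB-regulated E2F factors. RefSeq windows of 300 bases, 250 before to 50 after the start, were at hand for 33 of 43 S-phase genes. TTTCGCGC or TTTGGCGC on either strand stood in 9 of these 33 (27.3%), in 2 of 45 G2/M promoters (4.44%), in 1.18% of 27305 promoters in all and in 1.97% of the 12031 promoters of genes tested. CCAAT on either strand stood in 69.7% and 68.9% of the 2 lists, in 35.7% of all promoters and in 36.5% of those of genes tested. A match is a description of letters, not a measured site. Capitals mark the E2F letters in MCM6 (chr2:135876394-135876693, minus strand, GRCh38.p14) and CDC6 (chr17:40287629-40287928, plus strand). Both are falling S-phase members whose window held these letters. They are examples, and no rank among all such members is given.
MCM6: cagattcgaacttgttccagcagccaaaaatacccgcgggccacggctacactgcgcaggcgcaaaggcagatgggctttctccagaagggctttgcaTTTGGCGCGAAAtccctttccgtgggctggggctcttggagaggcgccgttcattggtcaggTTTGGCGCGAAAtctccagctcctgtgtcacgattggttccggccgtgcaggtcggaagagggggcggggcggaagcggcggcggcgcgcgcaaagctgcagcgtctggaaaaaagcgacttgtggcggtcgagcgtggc
CDC6: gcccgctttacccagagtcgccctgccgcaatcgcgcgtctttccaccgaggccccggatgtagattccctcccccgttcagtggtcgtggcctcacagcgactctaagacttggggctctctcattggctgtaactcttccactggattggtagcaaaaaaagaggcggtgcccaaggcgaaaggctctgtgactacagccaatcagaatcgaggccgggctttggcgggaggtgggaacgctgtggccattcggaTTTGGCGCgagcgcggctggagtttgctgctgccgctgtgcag

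Integrin and focal adhesion genes were mostly lower, beside 36.1% lower and 35.1% higher among all genes. Of 26 integrin genes, which encode the receptors for matrix proteins, 21 were tested, 14 were called lower and 1 higher (66.7% and 4.76%), with a median of -0.81. ITGAV, the alpha-V chain, had 9692, 9164 and 9298 in Control and 2986, 3200 and 3271 in the libraries labelled shARID1A/B.4.2 (-1.57, SE 0.04). ITGA5, the fibronectin receptor chain, changed by -1.56, ITGA9 by -1.32, ITGB3 by -1.36 and ITGB1, the common beta chain, by -0.53, while ITGB5 (0.31) was the one called higher. Focal adhesion and contractile actin genes had 24 lower and 3 higher of 31 (77.4% and 9.68%), with a median of -0.52. TNS3, an adhesion adaptor, changed by -2.82, TAGLN2 by -1.57, TAGLN by -1.09 and MYH9, non-muscle myosin, by -0.72.

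Matrix genes were more mixed, with 23 lower and 11 higher of 42 tested (54.8% and 26.2%, beside 36.1% and 35.1% of all genes) and a median of -0.45. With scaling to total reads 20 were lower and 11 higher. VCAN, the proteoglycan versican, fell from 42585, 43628 and 42381 to 5769, 5703 and 5721 (-2.90, SE 0.02). COL6A3 changed by -3.01, NID1, a basement membrane linker, by -2.11, COL4A2 by -1.71, THBS1 by -1.75 and LOXL2, a collagen crosslinking enzyme, by -1.73. COL1A2, the partner chain of COL1A1, was near 20 reads in both groups (means 18.5 and 21.4, adjusted p = 0.652, limma). Cadherins went both ways. CDH2, N-cadherin, had 16973, 16874 and 16707 against 5247, 5379 and 5262 (-1.67, SE 0.03), and CDH11 changed by -0.72. CDH7 and CDH18 rose by 2.55 and 1.14, and CDH12 went from 3.08 to 4.48 up to 38.4 to 52.8. In all, 4 of 16 tested cadherins were lower and 8 higher (25.0% and 50%), with a median of 0.70 that became -0.34 when only genes with 10 reads in every library were kept.

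Of YAP and TEAD pathway genes and targets, 13 of 20 were lower and 5 higher (65.0% and 25.0%, beside 36.1% and 35.1% of all genes), or 10 and 6 with scaling to total reads. YAP1 itself changed by -1.22, its target CCN2 by -1.38 and the kinase gene STK3 by -1.05, while the upstream gene NF2 rose by 0.98. Endothelin genes had 5 lower and 0 higher of 7 (71.4% lower, median -1.28). The converting enzyme ECE1 changed by -1.28, and the receptor gene EDNRB, at 7.83 to 18.8 in Control, was at 0 to 2.73. TGF-beta and BMP genes had 17 lower and 7 higher of 29 (58.6% and 24.1%), or 13 and 10 with scaling to total reads, with TGFBR1 at -1.45 and SMAD9 at -1.46. Receptor tyrosine kinases and ligands had 11 lower and 8 higher of 25 (44.0% and 32.0%), near the shares of all genes. RET, the GDNF co-receptor of sympathetic cells, fell from 29923, 31384 and 30687 to 10759, 11058 and 10921 (-1.49, SE 0.03). EGFR changed by -1.63, the ligand HGF by -1.88, ROR1 by -1.51 and PDGFRB by -1.37, whereas ERBB2 rose by 1.49.

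Most mesenchymal-state regulators were lower, and the adrenergic circuit factors were mixed. Of 19 adrenergic factors, 10 were lower and 5 higher (52.6% and 26.3%, beside 36.1% and 35.1% of all genes). HAND2 had 19025, 19481 and 19187 in Control and 6791, 6827 and 6944 in the libraries labelled shARID1A/B.4.2 (-1.49, SE 0.03), ISL1 changed by -1.20 and MYCN, amplified in this line, by -0.53. HAND1 (0.72), GATA3 (0.26) and PHOX2A (0.18) were higher. INSM1, a neuroendocrine factor and the member higher over 2-fold, was at 1.17 to 7.19 in Control and 14.99 to 28.2 in the other group. The median of the list was -0.18, but 0.01 with 9 members lower and 9 higher when reads were scaled to the total. Of 25 mesenchymal-state regulators tested, which mark the migratory neural crest-like state, 17 were lower and 3 higher (68.0% and 12%) with a median of -0.57. NOTCH3 changed by -2.42, AEBP1 by -2.15, SNAI2 by -2.07, TWIST1 by -1.77, IRF2 by -1.79, NOTCH2 by -1.30 and ZEB2 by -1.32, and CD44 rose by 0.64. Of 16 Notch pathway genes tested, 6 were lower and 6 higher (37.5% each), near the shares of all genes, with NOTCH1 at -1.05, and JAG1 (0.97) and HES6 (1.05) higher.

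Markers of neuroblastoma were present in all libraries. The 10 neuroblastoma markers summed to 204241 to 210029 in Control and 171661 to 181894 in the libraries labelled shARID1A/B.4.2, with none at 0. Of these 10, 5 were called lower and 4 higher (50% and 40%), beside 36.1% and 35.1% of all genes tested. MYCN made up most of the sum and fell from a mean of 122676 to 85143. CHGA and CHGB, the chromogranins, were higher, CHGA at 30407 to 35542 against 18943 to 19832 and CHGB at 23462 to 31268 against 17899 to 18529. Fibroblast markers summed to 35281 to 35848 and to 14507 to 15144, of which 5 of 6 were called lower (83.3%, beside 36.1% of all genes), including COL1A1, PDGFRB, LUM (-0.50) and DCN (-0.42). Beside the falls of matrix and mesenchymal genes these sums moved the same way, but COL1A1 is counted both here and in the matrix list. Its mean went from 12929 to 827, the largest fall in mean of the 6 markers. The part of fibroblast markers in those falls was not tested. The 5 immune markers summed to 448 to 484 and 219 to 240, mostly PTPRC, encoding CD45 (-1.39), with CD3E at 0 in Control. The 5 epithelial markers summed to 161 to 178 and 253 to 280 (EPCAM, 1.3), the 5 endothelial markers to 44.8 to 88.1 and 95.8 to 113, and the 5 Schwann cell markers to 137 to 161 and 282 to 324, with SOX10 at 0 in both groups. KDR, a vascular growth factor receptor, was at 1.03 to 2.35 in Control and 34.0 to 42.1 in the other group.

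Neuronal and secretory genes changed in both directions. Of 26 neuronal cytoskeleton and identity genes, 11 were lower and 13 higher, and of 38 synaptic vesicle and granule genes 15 were lower and 19 higher. These are 42.3% and 50%, and 39.5% and 50%, beside 36.1% and 35.1% of all genes. STMN2, a growth cone stathmin, fell from 16158, 15587 and 15806 to 3651, 3411 and 3447 (-2.18, SE 0.03), and DCX, doublecortin of migrating neurons, changed by -2.06. STMN3, a relative of STMN2, rose from 3544 to 3897 up to 10781 to 11355 (1.56), and the neurofilament genes NEFM and NEFL rose by 1.66 and 0.87. NPY, a sympathetic neuropeptide, had 3433, 3377 and 3530 against 548, 651 and 616 (-2.51, SE 0.05), VGF changed by -1.46, CPE by -1.48 and SYT1 by -0.96, and CHGA, chromogranin A, rose by 0.77. Axon guidance genes had 31 lower and 20 higher of 62 (50% and 32.3%), among them PLXNA4 (-1.66), SLIT3 (-1.08) and UNC5C (-0.84), with NRP1, a semaphorin co-receptor, higher by 1.12. Their median was -0.16, and 0.03 with scaling to total reads.

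Of 11 catecholamine genes tested, 3 were lower and 5 higher (27.3% and 45.5%, beside 36.1% and 35.1% of all genes). DBH, which turns dopamine into noradrenaline, had 476, 591 and 520 against 158, 138 and 181 (-1.73, SE 0.09), and GCH1, which makes the hydroxylase cofactor, changed by -1.59. TH, the first enzyme of the pathway, had means of 678 and 671 (-0.02, SE 0.10, adjusted p = 0.899, limma). The breakdown enzyme MAOA and the noradrenaline transporter gene SLC6A2 (0.70) were higher.

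Interferon and antigen presentation genes were mostly lower. Of 34 tested interferon-stimulated genes, 20 were lower and 5 higher (58.8% and 14.7%, beside 36.1% and 35.1% of all genes), with a median of -0.77. Of the falls 14 passed 2-fold, beside 8.14% of all genes. IFITM3, which blocks viral entry, had 217, 203 and 257 in Control and 11.8, 7.72 and 4.68 in the libraries labelled shARID1A/B.4.2 (-4.71, SE 0.23, adjusted p = 2.28e-15, limma). IFITM2, its near-identical neighbour, changed by -3.75, and reads of these 2 genes can be split between them. OAS3, a sensor of double-stranded RNA, had 1506, 1509 and 1557 against 252, 253 and 276 (-2.55), PARP14 changed by -1.90 and ISG15 by -1.87. EPSTI1 went the other way, from 0 to 3.36 up to 9.27 to 19.7.

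Of 16 tested MHC class I presentation genes, 14 were lower and 2 higher (87.5% and 12.5%, beside 36.1% and 35.1% of all genes), with a median of -0.73. PSMB8, an immunoproteasome subunit, had 180, 171 and 192 against 20.0, 14.7 and 27.2 (-3.11, SE 0.17). The peptide trimmer ERAP1 changed by -2.08, the peptide transporter genes TAP2 and TAP1 by -1.59 and -1.35, and B2M, the shared light chain, fell from 13754, 13636 and 13633 to 6006, 6381 and 6185 (-1.14). HLA-B changed by -0.80, and its reads may be shared with similar genes.

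The promoters of 2 falling interferon-stimulated genes are shown for the ISRE, the element of interferon-stimulated promoters, read as GAAA, 2 free bases and GAAA on either strand. It stood in 20 of 30 promoters of the list (66.7%), in 7 of 13 of the MHC class I list (53.8%), in 3.65% of all promoters and in 2.83% of those of genes tested. Capitals mark these letters in IFITM3 (chr11:320811-321110, minus strand) and OAS3 (chr12:112938224-112938523, plus strand), from RefSeq GRCh38.p14. Both are falling members that held them, shown as examples without a rank among all such members.
IFITM3: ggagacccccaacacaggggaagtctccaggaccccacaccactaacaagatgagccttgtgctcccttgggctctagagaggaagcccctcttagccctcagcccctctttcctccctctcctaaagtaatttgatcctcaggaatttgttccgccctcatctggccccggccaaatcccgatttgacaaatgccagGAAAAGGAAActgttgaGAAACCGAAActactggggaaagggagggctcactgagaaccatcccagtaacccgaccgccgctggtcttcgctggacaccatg
OAS3: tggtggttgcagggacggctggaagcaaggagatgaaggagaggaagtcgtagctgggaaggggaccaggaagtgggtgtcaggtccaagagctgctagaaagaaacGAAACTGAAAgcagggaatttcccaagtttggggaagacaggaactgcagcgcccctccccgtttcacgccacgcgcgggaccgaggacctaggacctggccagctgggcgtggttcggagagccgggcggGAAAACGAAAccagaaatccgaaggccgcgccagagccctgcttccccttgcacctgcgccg

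Of 39 ATF4 stress and amino acid genes tested, 28 were lower and 8 higher (71.8% and 20.51%, beside 36.1% and 35.1% of all genes), with a median of -0.26, or 19 and 11 with scaling to total reads. MTHFD2, of mitochondrial folate metabolism, fell from 8034, 7949 and 8005 to 2101, 2084 and 2154 (-1.92), PSAT1, of serine synthesis, changed by -1.70 and SHMT2 by -1.20, whereas SESN2 rose by 1.81 and DDIT4 by 1.20. Cholesterol genes had 19 lower and 5 higher of 29 (65.5% and 17.2%), or 13 and 12 with scaling to total reads, with INSIG1 at -1.92, DHCR7 at -1.47 and the efflux pump gene ABCA1 at 1.54. Of 26 p53 target genes, 14 were lower and 6 higher (53.8% and 23.1%), or 13 and 9 with that scaling, with PMAIP1 at -1.78, SESN1 at -1.63, TP53I3 at 1.19 and BTG2 at 1.44. Mitochondrially encoded protein genes had 5 lower and 2 higher of 13, MT-ND6 being the most changed at -0.74, and with scaling to total reads 2 were lower and 9 higher. Cytosolic ribosomal protein genes had 29 lower and 21 higher of 79, from RPL3 at -0.31 to RPL15 at 0.60, and with scaling to total reads 4 were lower and 66 higher.

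The second combination in the series, labelled shARID1A/B.2.3, also had ARID1B low (2540 to 2651) and ARID1A near Control (5510 to 5752), yet differed widely. Between these 2 groups 13924 genes differed (limma), 6903 lower and 7021 higher in the libraries labelled shARID1A/B.4.2 (37.1% and 37.8%), with 9.57% and 12.7% past 2-fold. ARID1A did not differ past the threshold (-0.06, adjusted p = 0.0782, limma), though with scaling to total reads it was higher by 0.10. The log2 difference was -0.45 for ARID1B (adjusted p = 5.79e-15, limma), -1.44 for PBRM1 and -2.67 for CDK6. IGF2, a growth factor, had 160, 131 and 123 in the libraries labelled shARID1A/B.4.2 and 7227, 7512 and 7623 in those labelled shARID1A/B.2.3, and HMOX1, a haem-degrading stress enzyme, had 51.9, 62.6 and 53.4 against 2184, 2446 and 2264. CHAC1, a stress gene, differed by -4.71 and FAM30A by -4.95, and INHBE was at 0.77 to 5.62 against 252 to 276. Against Control, HMOX1 changed by -0.81 in shARID1A/B.4.2 and by 4.52 in shARID1A/B.2.3, and CHAC1 by -0.45 and 4.26. IGF2 changed by -2.23 and 3.52, INHBE by -1.72 and 4.64, and FAM30A by -4.31 and 0.64. Between the 2 combinations SCN3B was higher by 3.96, HTR3B by 4.06, RBM24 by 4.04, HTR3A by 5.16 and MIR7-3HG by 5.51 in shARID1A/B.4.2.

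The lists differed as well between the 2 combinations, beside 37.1% of all genes tested lower and 37.8% higher in shARID1A/B.4.2. Of 39 ATF4 genes 36 were lower and 2 higher in shARID1A/B.4.2, with a median difference of -1.27. PSAT1 had 2699 to 2761 against 17083 to 17476. Interferon-stimulated genes had 23 lower and 6 higher of 34 (median -0.82), and MHC class I genes 12 lower and 3 higher of 16 (median -0.84). The proliferation lists were higher in the libraries labelled shARID1A/B.4.2. Of the S-phase genes 30 of 43 were higher and 11 lower (median 0.34), of the G2/M genes 45 of 54 and 6 (median 0.44), and of the repair genes 25 of 30 and 3 (median 0.51). SMARCD1, the BAF subunit, was higher by 1.72 and TGFBR1 by 1.08.

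Against the libraries labelled shARID1A.4, 13826 genes differed (36.9% lower and 37.5% higher, 9.17% and 13.2% past 2-fold, limma), and against those labelled shARID1B.2, 12087 did (32.7% and 32.3%, 6.52% and 6.19% past 2-fold). The largest differences from shARID1A.4 were in NIBAN1 (-6.17), GDF15 (-6.02), CPLX3 (-5.71), IGF2 (-5.46) and NPTX1 (-5.20), and in HTR3A (6.76), RBM24 (5.02), ENTPD3 (4.62), XKR5 (4.32) and HTR3B (4.29). Against Control, NIBAN1 changed by -0.04 in the combination under study and by 6.13 in shARID1A.4. NPTX1 changed by 0.89 and 6.09, and XKR5 by -0.45 and -4.78. GDF15, CPLX3, IGF2, HTR3A, RBM24, ENTPD3 and HTR3B changed in that combination in the direction of their difference. NIBAN1 was at 3.86 to 12.75 there and GDF15 at 1.54 to 4.68. The largest differences from shARID1B.2 were IFITM3 (-4.60), COL1A1 (-3.95), PSMB8 (-3.65), VSTM4 (-3.41) and STARD8 (-3.30), and NFAM1 (4.14), HTR3A (3.88), FZD5 (3.62), EPAS1 (3.49) and SLC4A4 (3.38). MHC class I genes were below their shARID1B.2 level in 14 of 16 cases (median -1.39), and interferon-stimulated genes in 27 of 34 (median -1.04). ARID1B was at 4913 to 5056 in the libraries labelled shARID1B.2, where ARID1A was at 1882 to 1962.

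Among the 5 comparisons run, the one with the libraries labelled shARID1A.2 gave the fewest differing genes, and it was added after the values had been seen. Here 9945 genes differed, 5043 lower and 4902 higher (27.1% and 26.4%, limma), with 2.36% and 2.78% past 2-fold. PBRM1 differed by 0.03 (SE 0.03, adjusted p = 0.511, limma) and CDK6 by -0.31 (SE 0.07, adjusted p = 0.000287). The difference was 1.34 (SE 0.03) for ARID1A and -0.23 (SE 0.02) for ARID1B. COL1A1 had 742 to 902 against 1317 to 1411, SCN3B 14408 to 14660 against 22440 to 22851, and MIR7-3HG 299 to 353 against 261 to 304. The largest differences were SPOCK2 (-3.02), PRLR (-2.94), GLI1 (-2.23), SIX2 (-2.13) and LAYN (-1.94), and EPPK1 (3.05), LINC02607 (2.63), DLK1 (2.53), NFAM1 (2.5) and CIAO2B (2.42). Against Control, SPOCK2 changed by 0.65 in the combination under study and by 3.67 in shARID1A.2. PRLR changed by 2.23 and 5.16, SIX2 by 1.01 and 3.14, LINC02607 by -0.81 and -3.44, and CIAO2B by -0.25 and -2.68. GLI1, LAYN, EPPK1 and NFAM1 changed in that combination in the direction of their difference. DLK1, a Notch-related surface protein, had 3650 to 4027 against 654 to 679, near its Control level of 3391 to 3800. RET was higher by 2.40 and CCND1 by 1.17, while integrins and focal adhesion genes were higher in 11 of 21 and 25 of 31 cases (medians 0.38 and 0.50).

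**Figure D4:**
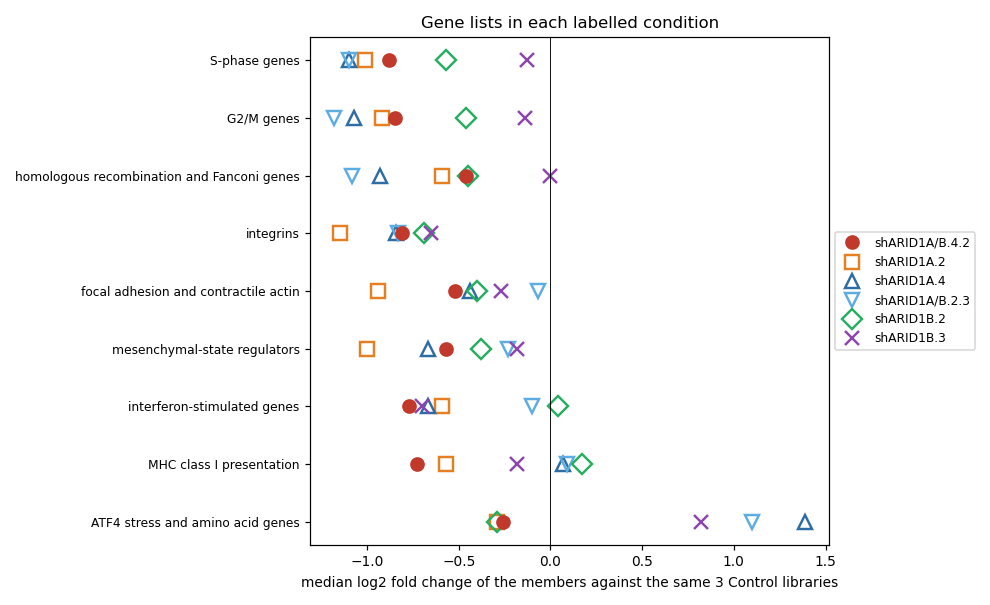
Median log2 fold change of the members of 9 gene lists in each of 6 labelled silencing conditions, all against the same 3 Control libraries. The libraries labelled shARID1A/B.4.2 (red) have S-phase and G2/M medians of -0.88 and -0.85, and an MHC class I median of -0.73 beside -0.57 to 0.17 in the others. Their ATF4 median of -0.26 is near that of shARID1A.2 and shARID1B.2 (-0.29 in each). It is 0.82 in shARID1B.3, 1.10 in shARID1A/B.2.3 and 1.39 in shARID1A.4.

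The condition medians were set side by side, since all share the Control libraries. The S-phase median was -1.10 in shARID1A/B.2.3, -1.10 in shARID1A.4, -1.01 in shARID1A.2, -0.57 in shARID1B.2 and -0.13 in shARID1B.3. The MHC class I median was 0.09, 0.07, -0.57, 0.17 and -0.18 in the same order. Focal adhesion genes had -0.07, -0.44, -0.94, -0.40 and -0.27, and mesenchymal-state regulators -0.23, -0.67, -1.0, -0.38 and -0.18. CDK6 had means of 3094 and 3827 in shARID1A/B.4.2 and shARID1A.2 and of 14549 to 24256 in the other 4 silenced conditions.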

How the data were processed

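Polyadenylated RNA of SK-N-BE(2) cells was sequenced as stranded libraries on an Illumina NovaSeq 6000. The submitters' processing notes name STAR 2.5.3a, RSEM 1.3.0, DESeq2 1.26.0 and GRCh38, with no role given, and the annotation release is not given in the sources used here. The deposited table holds a normalised signal for 60728 genes in each library, that is, reads over a size factor. Whole reads were recovered for 100% of values within a tolerance of 0.1 read (largest deviation 0.05), giving 27954334 to 41077638 reads per library, and counting error is small for all but the lowest genes. The authors' 3 tables of their own comparisons hold fold changes and p-values and were not used.

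Log2(deposited value + 1) was tested with limma 3.58.1 (R 4.3.3) with a trend over all 21 libraries in 7 conditions from the titles (14 residual degrees of freedom), on 18584 genes kept by edgeR's expression filter on the recovered reads, with Benjamini-Hochberg adjustment and a threshold of 0.05. Alternatives were edgeR 4.0.16 with TMM, DESeq2 1.42.0, scaling to total reads or upper quartile, pseudocounts of 0.5 and 5, no filter, 10 reads in every one of the 21 libraries, only the 6 libraries, a replicate block, and each replicate left out. Functions were tested on simulated data. Coordinates are from GENCODE 29, matched by gene identifier without version (58541 genes). Replicates differed by more than sampling noise (chi-square per degree of freedom 1.87 to 3.77 in these 2 groups).

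Members and the 34 gene lists were chosen with earlier results of these data known. Named genes were ARID1A, ARID1B, up to 6 members per list with the smallest adjusted p plus those a pathway needs, the 12 largest falls and rises with a mean of at least 100 and no overlap, and the 5 largest each way in direct comparisons. The comparison with shARID1A.2 was added after seeing the data. Python 3.11.15 was used. Some list members are not reported here.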

Additional observations from a re-analysis of the deposited data

Results flagged for a closer look

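Some of the 217 named genes changed over 2-fold against the shared Control libraries in opposite directions between shARID1A/B.4.2 and another condition. Only named genes were searched, part of them chosen as the largest direct differences, and the share over all genes was not counted. A direct difference past an adjusted p of 0.05 (limma) was a condition of the choice. So was a mean of at least 100 over the 6 libraries or in the other condition. Values are log2 differences, shARID1A/B.4.2 minus the other condition, and both conditions share the Control libraries.

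Against shARID1A/B.2.3, the lower genes were INHBE (-6.36), IGF2 (-5.75), the stress cytokine gene GDF15 (-4.79), MALL (-4.40), the complexin gene CPLX3 (-3.58), MTHFD2 (-3.02), ITGA5 (-2.92) and DBH (-2.83). In the libraries labelled shARID1A/B.4.2, INHBE was at 0.77 to 5.62, GDF15 at 1.54 to 4.68 and CPLX3 at 7.29 to 20.6. INHBE, GDF15 and CPLX3 met the limit on the mean only through the other condition. ITGA5 changed by -1.56 in shARID1A/B.4.2 and by 1.36 in shARID1A/B.2.3, and DBH by -1.73 and 1.10. The higher genes were MIR7-3HG (5.51), HTR3A (5.16), HTR3B (4.06), RBM24 (4.04) and SCN3B (3.96), which changed by 2.79 and by -1.18.

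Against shARID1A.4, GDF15 (-6.02), CPLX3 (-5.71), IGF2 (-5.46), INHBE (-5.40), PSAT1 (-3.09) and VGF (-3.0) were lower, and HTR3A (6.76), RBM24 (5.02), HTR3B (4.29), TM4SF4 (3.82) and NRP1 (3.03) higher. Against shARID1B.2, STARD8 (-3.30) was lower, and FZD5 (3.62), EPAS1 (3.49), SLC4A4 (3.38) and NRP1 (2.13) were higher.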

How the results depend on the processing

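Of the values of named genes against Control under the alternatives, 3422 kept their direction and side of the threshold, 15 reversed, 4 lost and 2 gained the call. Scaling to total reads moved the most. It left ARID1A at -0.03, left 10 instead of 18 of 28 gene lists with most members lower (lost were the BAF, matrix, YAP, adrenergic, TGF-beta, ATF4, cholesterol and p53 lists), turned SMARCA4 to 0.15, CDKN1B to 0.16, TH to 0.17, NIBAN1 to 0.12 and the ARID1A difference from shARID1A/B.2.3 to 0.10. edgeR turned SMARCA4 to 0.00, CDKN1B to 0.01, TH to 0.03 and NIBAN1 to 0.07, DESeq2 turned NIBAN1 to 0.04, and upper-quartile scaling gave 0.00 for CDKN1B and 0.01 for TH. None of these 4 genes was called against Control in the reported fit. With scaling to total reads SMARCA4 and CDKN1B were called higher (adjusted p = 2.89e-05 and 0.000266, limma). They are counted with the reversed values and not with the gained calls. The cause was not tested. With 10 reads required in each of the 21 libraries, 14637 genes were tested instead of 18584, and 1952 passed 2-fold instead of 3423. Of these, 1147 were lower and 805 higher, instead of 1513 and 1910.

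Leaving out each library in turn gave 12656 to 12761 calls against Control (6456 to 6506 lower, 6162 to 6255 higher, 3318 to 3391 past 2-fold), 13380 to 13431 against shARID1A/B.2.3, 13269 to 13346 against shARID1A.4, 11404 to 11538 against shARID1B.2 and 9144 to 9474 against shARID1A.2. ARID1A was -0.24 to -0.20, ARID1B -1.62 to -1.59, the gene lists 18 to 19, TH -0.06 to 0.04 and NIBAN1 -0.43 to 0.32. With the replicate block there were 13212 calls. On the recovered reads edgeR called 13313 genes and DESeq2 12540. Same-numbered libraries of the 2 groups correlated at 0.044, -0.083 and -0.061, and not every library correlated best with its own number, so the numbers are not taken to pair them.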

Other observations

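Among the rises over 2-fold, 146 of 1188 pseudogenes tested were found (12.3%, beside 10.3% of all genes tested). As far fell 56 of them (4.71%, beside 8.14% of all genes). LINC01522 was the 1 gene under 10 in every Control library and over 100 in every library labelled shARID1A/B.4.2, and DPT, encoding dermatopontin of the matrix, the 1 gene with the reverse pattern, both picked after their values were seen.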
